A study of Mus musculus with 18 samples.

Results

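The BMP pathway and Id genes described here are 10 genes: the ligands Bmp4 and Bmp7, the secreted BMP antagonist Nog, the inhibitory SMADs Smad6 and Smad7, and the target genes Id1, Id2, Id3, Msx1 and Msx2. They were chosen by name, and every probe set (a group of short probes for 1 transcript) that carried only that gene's symbol was taken. This gave 17 probe sets for the 10 genes, of 34945 single-symbol probe sets for 18193 genes on the array. RNA from HBG3 mouse embryonic stem (ES) cells, at 6 stages on the way to spinal motor neurons, was measured on 18 Affymetrix expression arrays. The stages were ES cells at day 0 (3 arrays), embryoid bodies, which are floating cell aggregates, at day 2 (4 arrays), day 2 embryoid bodies after 8 h of retinoic acid (RA; 2 arrays), neural precursors at day 3 (3 arrays), motor neuron progenitors at day 4 (3 arrays) and cultures with postmitotic motor neurons at day 7 (3 arrays). RA and a hedgehog agonist were added to the embryoid bodies at day 2, so that the day 3, day 4 and day 7 cultures had received both. For the 8 h arrays the labels give RA as the only addition, and whether the agonist was present is not settled. No culture of the same hours without RA, and no later culture without RA and agonist, was analysed here, so that treatment and time cannot be told apart. All groups came from 1 cell line, which is amplified on feeder cells and moved to gelatin for differentiation. No sorting of cells is described, and in whole cultures fewer cells of a type and less RNA per cell cannot be told apart.

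Bone morphogenetic proteins (BMPs) are secreted ligands that bind receptor kinases, which phosphorylate SMAD1, SMAD5 and SMAD9, and these enter the nucleus with SMAD4. Smad6 and Smad7 encode SMADs that block this relay and are themselves induced by it, while noggin, the product of Nog, captures BMPs outside the cell. Id genes are direct targets in many cell types, and Id proteins bind E proteins and keep them from activating transcription with proneural factors. In mouse ES cells BMP acts with LIF to maintain self-renewal through Id genes, and in the neural tube BMPs from the roof plate specify dorsal fates.

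The promoters of 2 Id genes are shown because Id2 and Id3 were the members with an available promoter sequence that were called higher at day 3 than at day 2 and than after 8 h of RA. The sequences are the 250 bases before the RefSeq transcription start (mouse build GRCm38.p6), written 5′ to 3′ on the gene's strand. Capitals in Id2 (chr12:25096093-25096342, minus strand) mark GGCGCC, a GC-rich element known for BMP-activated SMADs, and the E-box CAGCTG. Capitals in Id3 (chr4:136143572-136143821, plus strand) mark CAGAC and its reverse complement GTCTG, the short SMAD-binding element.
Id2: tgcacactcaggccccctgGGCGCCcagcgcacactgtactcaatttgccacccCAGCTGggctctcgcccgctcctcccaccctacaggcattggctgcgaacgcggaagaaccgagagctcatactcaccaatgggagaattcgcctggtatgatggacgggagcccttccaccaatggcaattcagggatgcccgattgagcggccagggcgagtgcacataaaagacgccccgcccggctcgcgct
Id3: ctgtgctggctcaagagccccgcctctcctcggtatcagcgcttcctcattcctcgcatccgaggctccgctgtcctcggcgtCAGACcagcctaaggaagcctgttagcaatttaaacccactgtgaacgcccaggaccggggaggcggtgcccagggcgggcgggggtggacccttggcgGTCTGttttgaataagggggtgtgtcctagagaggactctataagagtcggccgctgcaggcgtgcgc
The GGCGCC of Id2 began 231 bases before the start and its CAGCTG 196 bases before it. In Id3 the CAGAC began 167 bases and the GTCTG 68 bases before the start. These letters are common. Of 32851 promoter windows of the same length, 9.59% held GGCGCC, 42.2% held GTCTG or CAGAC and 13% held CAGCTG on either strand. The E-boxes CACGTG and CACCTG (or its reverse complement CAGGTG) were in 6.02% and 17.2% of windows. Windows were at hand for 6 members (Bmp4, Smad6, Id2, Id3, Msx1 and Msx2). Bmp4 held a CACGTG 188 bases and a CAGGTG 177 bases before its start, Msx1 a CACCTG 210 bases before its start, and Smad6 and Msx2 none of these letters. A match of letters is a description and not a measured site.

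Values are log2 signals normalized across all arrays, and signals under 4 on this scale are called under background here. By the same measure 55.2% to 56.9% of all probe sets lay under background on each array. For a gene with several probe sets, the one with the highest mean over all arrays stands for the gene. A gene was called at a limma adjusted p under 0.01 over all 45037 probe sets together with a change of at least 2-fold. Arrays of 1 stage differ in size for some members, and the array numbers below are the replicate numbers of the labels. Some stage markers followed the labels. Mean log2 signals of Pou5f1, a pluripotency factor, were 12.18 at day 0, 12.51 at day 2 and 2.34 at day 7. Pax6 and Sox1 of neural precursors peaked at 11.45 and 11.92 at day 3. Olig2 and Nkx6-1 of motor neuron progenitors peaked at 11.10 and 9.17 at day 4. The cholinergic transporter Slc18a3 reached 7.03 at day 7. Other markers peaked later than the stage they were listed for. Nes of neural precursors averaged 7.97 at day 3 and 10.13 at day 7. Nkx2-2, listed for motor neuron progenitors, averaged 6.62 at day 4 and 10.65 at day 7. Chat, the enzyme that makes acetylcholine, stayed near the lowest values, with a mean of 2.48 at day 7. Of the 10 members, 6 passed a filter of at least 2 arrays at background or above, against 12103 of 18193 genes. Nog, Msx1 and Msx2 were under background on all 18 arrays, and Smad6 was above it on 1.

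**Figure D1:**
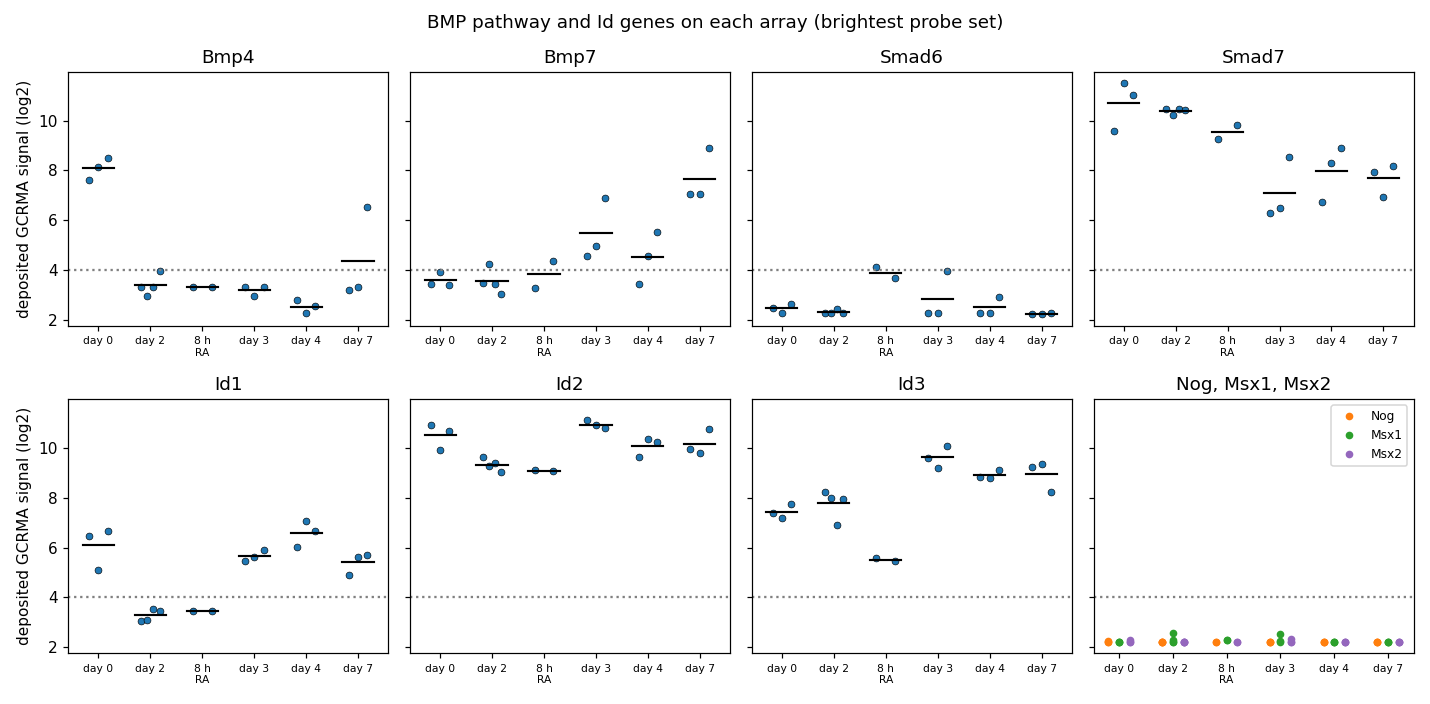
Deposited log2 signal (vertical axis) of each member's brightest probe set on every array, by stage in time order (horizontal axis). Points are arrays, short lines are stage means, and the dotted line is the background level of 4. Bmp4 stands at 7.63 to 8.49 at day 0 and under 4 at days 2, 3 and 4, Id3 is lowest after 8 h of RA, and Nog, Msx1 and Msx2 lie under background throughout.

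Bmp4, the ligand best known for its role in ES cell self-renewal and in mesoderm, was a transcript of the ES cell stage. Its log2 signals at day 2 were 3.31, 2.97, 3.33 and 3.96, against 7.63, 8.12 and 8.49 at day 0. The 4 embryoid body arrays were under background, and the groups did not overlap. The log2 fold change was -4.69 (SE 0.62, limma adjusted p = 0.00057), a signal at least 16.9-fold lower at day 2 with the day 2 mean set to background. This call held with any 1 of the 7 arrays left out. After 8 h of RA both arrays read 3.31, and the day 3 arrays read 3.31, 2.95 and 3.31. The day 4 arrays read 2.81, 2.27 and 2.56. The identical value 3.31 stood on 5 arrays, and values under background are given no order here. At day 7 the arrays read 3.19, 3.34 and 6.54, against 7.63, 8.12 and 8.49 at day 0, and Bmp4 was called lower (log2 fold change -3.73, SE 0.66, limma adjusted p = 0.00065). Of the day 7 arrays, replicate 5 alone lay above background, and day 7 did not pass the test against day 4 (at least 1.28-fold by the means, limma adjusted p = 0.081).

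Markers of fibroblasts, the usual feeder cells, moved with the loss of Bmp4 signal. Their summed signal over the 6 listed genes, on the log2 scale, ranged from 5.83 to 6.58 on day 2 arrays and from 9.01 to 11.80 on day 0 arrays. Col1a1, which encodes a collagen chain, read 5.45, 5.44, 4.93 and 4.93 at day 2, against 8.76, 9.62 and 11.58 at day 0, and was the 1 of the 6 that was called, lower. Of all genes, 2.15% were called lower there. Lum and Postn were under background on every array of both stages. The part of these cells in the Bmp4 result was not tested.

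Bmp7, a ligand of roof plate, kidney and other epithelia, was highest at day 7. Its log2 signals were 7.04, 7.04 and 8.89 at day 7, against 3.45, 4.55 and 5.55 at day 4. All day 7 arrays were above all day 4 arrays, with a log2 fold change of 3.14 (SE 0.70, limma adjusted p = 0.0056). The call was lost without day 4 replicate 1 (limma adjusted p = 0.029), day 4 replicate 2 (0.019) or day 7 replicate 5 (0.026). Against the day 0 arrays, at 3.45, 3.94 and 3.39, day 7 stood at least 12.6-fold higher (a log2 fold change of 4.06, SE 0.70, limma adjusted p = 0.00047), and this held with any array left out. The arrays of day 2, at 3.50, 4.24, 3.46 and 3.05, and those after 8 h of RA, at 3.29 and 4.37, lay about the background level. Day 3 gave 4.56, 4.99 and 6.91, all above the day 2 arrays, but the difference of 1.92 (SE 0.65) did not pass the test (limma adjusted p = 0.10). Every day 7 array lay above every array of the other stages, and the day 3 and day 4 arrays overlapped. The means of day 0, day 2 and 8 h of RA were under background and are given no order.

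Some markers of glia and neural crest were high on the same day 7 arrays. The log2 summed signal of the 4 measured genes of that list was 7.51, 9.15 and 11.08 at day 7, against 5.40, 4.31 and 5.03 at day 4. Sox10, a factor of neural crest and oligodendrocytes, read 6.88, 9.04 and 11.05 at day 7, with replicate 5 the highest of the day 7 arrays for Sox10, for Bmp7 and for Bmp4. The same array was also the highest at day 7 for Smad7 (8.19), Id1 (5.70) and Id2 (10.74), and the lowest for Id3 (8.22). Aqp4, an astrocyte water channel, was called higher with Sox10, so that 2 of the 4 genes were, where 8.81% of all genes were. Foxd3 of neural crest averaged 3.58 at day 7 and 3.52 at day 4 and was not called, and Gfap, an astrocyte filament, read 2.24 on every array of both stages. Among 8 measured dorsal neural tube genes, 7 were under background on every day 7 array and Olig3 read 7.89, 6.95 and 4.23, so replicate 5 was there the lowest. The part of these cells in the Bmp7 result was not tested.

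The 3 probe sets of Bmp7 did not give the same picture. Besides the brightest one (1435479_at), 1418910_at lay between 2.73 and 4.46 on all arrays and was not called in any comparison. For day 7 against day 0 its log2 fold change was -0.76 (SE 0.36, limma adjusted p = 0.16), opposite in sign to that of the brightest probe set. The other one, 1432410_a_at, was under background on all 18 arrays, with values up to 2.33. The rise of Bmp7 thus rests on 1 of its 3 probe sets, and with the 3 averaged it was not called at day 7 against day 4 (limma adjusted p = 0.016).

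**Figure D2:**
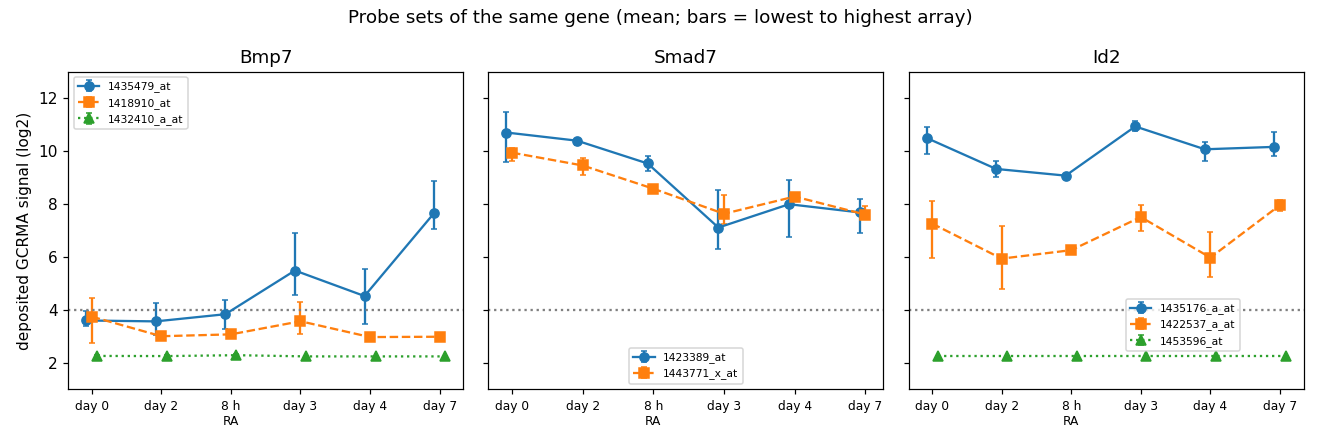
Mean log2 signal (vertical axis) of each probe set of Bmp7, Smad7 and Id2 by stage (horizontal axis); bars run from the lowest to the highest array, and the dotted line is the background level of 4. The 2 probe sets of Smad7 fall together, while 1 probe set of Bmp7 reaches 8.89 at day 7 and the other 2 stay at 4.46 or lower.

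Nog read 2.24, the lowest value in the data to 2 decimals, on all 18 arrays, so that its transcript was not detectable on these arrays at any stage.

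Smad7, the inhibitory SMAD that acts on both BMP and TGF-beta receptors, was measured well above background on every array and fell between day 2 and day 3. Its log2 signals were 6.30, 6.49 and 8.54 at day 3, against 10.46, 10.24, 10.46 and 10.42 at day 2. The day 2 arrays lay within a narrow band, the day 3 arrays lay below them without overlap, and day 3 replicate 3 stood above the other 2. The log2 fold change was -3.29 (SE 0.63, limma adjusted p = 0.0051). After 8 h of RA the arrays read 9.25 and 9.82, both below all day 2 arrays, with a log2 fold change of -0.86 against day 2 that did not pass the test (SE 0.72, limma adjusted p = 1). Day 3 against 8 h of RA gave -2.42 (SE 0.76, limma adjusted p = 0.10). The day 4 arrays read 6.75, 8.31 and 8.92. The day 7 arrays read 7.93, 6.92 and 8.19, against 9.60, 11.49 and 11.03 at day 0, a log2 fold change of -3.02 (SE 0.68, limma adjusted p = 0.0035). Stage means, lowest first, ran day 3, day 7, day 4, 8 h of RA, day 2 and day 0. Day 3 overlapped with day 7, day 7 with day 4, and day 2 with day 0, while day 4 and 8 h of RA, and 8 h of RA and day 2, did not overlap.

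The call of Smad7 at day 3 depended on single arrays for this probe set. Its limma adjusted p lay between 0.011 and 0.033 when any 1 of the 4 day 2 arrays, or day 3 replicate 1 or 2, was left out. The fall at day 7 against day 0 was lost without day 0 replicate 2 (limma adjusted p = 0.019), day 0 replicate 3 (0.015) or day 7 replicate 4 (0.019). The second probe set, 1443771_x_at, read 7.24, 7.31 and 8.33 at day 3, against 9.55, 9.44, 9.76 and 9.09 at day 2. Its log2 fold change was -1.83 (SE 0.25, limma adjusted p = 0.00041), and for day 7 against day 0 it was -2.34 (SE 0.27, limma adjusted p = 1.3e-05). Both probe sets were therefore called in the same direction in both comparisons. Day 3 replicate 3 was also the highest of the day 3 arrays for Bmp7, Smad6, Id1 (5.92) and Id3 (10.09), and the lowest for Id2 (10.78). It was the highest, too, for the fibroblast genes, whose log2 summed signal was 8.80 there and 7.13 and 7.01 on the other day 3 arrays. The part of fibroblasts in the spread of Smad7 was not tested.

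Smad6, the inhibitory SMAD more specific to BMP, was near background. It read 4.12 and 3.69 after 8 h of RA, against 2.30, 2.30, 2.45 and 2.30 at day 2. Both RA arrays were above all day 2 arrays, but the fitted difference of 1.56 (SE 0.37) did not pass the test (limma adjusted p = 0.17). As the RA mean of 3.90 is under background, this is no measured fold. Day 3 replicate 3 read 3.95, with 2.30 on the other 2 day 3 arrays. All arrays of day 0, day 4 and day 7 were at 2.94 or lower. Without day 3 replicate 3, day 3 was called lower than 8 h of RA (fitted difference -1.60, limma adjusted p = 0.00058), and with it the value was -1.05 (limma adjusted p = 0.18).

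Id1, Id2 and Id3, which encode inhibitors of E proteins, were each called higher at day 3 than at day 2 and than after 8 h of RA. Their levels before day 3 differed. Id1 fell to values under background at day 2. Id2 was also lower on all day 2 arrays than on the day 0 arrays, though not called, and its brightest probe set stayed at 9.04 or higher on all 18 arrays. Id3 had its lowest values after 8 h of RA.

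Id1 read 3.05, 3.11, 3.55 and 3.46 at day 2, all under background, against 6.48, 5.11 and 6.68 at day 0. It was at least 4.26-fold lower at day 2 (log2 fold change -2.80, SE 0.35, limma adjusted p = 0.00040). Both arrays after 8 h of RA read 3.46, within the day 2 range. At day 3 the arrays read 5.48, 5.63 and 5.92, and Id1 was at least 3.20-fold higher than at day 2 (log2 fold change 2.38, SE 0.35, limma adjusted p = 0.00078). All 3 day 3 arrays were above all day 2 arrays. The same bound of 3.20-fold held against 8 h of RA (log2 fold change 2.22, SE 0.42, limma adjusted p = 0.0078). With values under background raised to the background level, the change against 8 h of RA was 1.68 and was not called (limma adjusted p = 0.040). It also narrowly lost its call with quantile normalization (limma adjusted p = 0.01005). The day 4 arrays, at 6.04, 7.06 and 6.68, were all above the day 3 arrays, but the difference of 0.92 did not pass the test (SE 0.38, limma adjusted p = 0.54). The day 7 arrays, at 4.89, 5.63 and 5.70, were all below the day 4 arrays, with a log2 fold change of -1.19 (SE 0.38, limma adjusted p = 0.043) that also missed the threshold. The calls against day 0 and day 2 held with any array left out. That against 8 h of RA was lost with each of the 5 arrays left out in turn, at limma adjusted p between 0.021 and 0.070. The fibroblast genes that were higher at day 0 than at day 2 apply to Id1 as to Bmp4, and their part was not tested.

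Id2 read 11.13, 10.90 and 10.78 at day 3, against 9.62, 9.27, 9.39 and 9.04 at day 2. The day 3 arrays were all above the day 2 arrays, with a log2 fold change of 1.61 (SE 0.27, limma adjusted p = 0.0022). After 8 h of RA it read 9.09 and 9.05, and day 3 was higher by 1.86 (SE 0.33, limma adjusted p = 0.0046). The call against day 2 was lost without day 3 replicate 1 (limma adjusted p = 0.015) or replicate 2 (0.0105), and that against 8 h of RA with any 1 of the 5 arrays left out (0.011 to 0.043). At day 2 all arrays were below those of day 0, at 10.91, 9.90 and 10.69, with a log2 fold change of -1.17 (SE 0.27, limma adjusted p = 0.025) that missed the threshold and passed it without day 0 replicate 2 (-1.47, limma adjusted p = 0.0074). The day 4 arrays read 9.63, 10.36 and 10.22 and the day 7 arrays 9.94, 9.81 and 10.74. They overlapped, and day 4 against day 3 gave -0.86 (SE 0.29, limma adjusted p = 0.31).

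The second probe set of Id2, 1422537_a_at, had the same sign at day 3 with more spread. It read 7.57, 6.99 and 7.96 at day 3, against 5.10, 4.78, 6.69 and 7.16 at day 2, so the groups overlapped (log2 fold change 1.57, SE 0.64, limma adjusted p = 0.20). It was highest at day 7, at 7.75, 7.98 and 8.15, against 5.24, 5.72 and 6.95 at day 4, but was not called there (1.99, SE 0.69, limma adjusted p = 0.063). The other one, 1453596_at, stood at 2.24 on all 18 arrays. With the 3 probe sets averaged, Id2 was not called at day 3 (limma adjusted p = 0.014 against day 2 and 0.058 against 8 h of RA).

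Id3 read 5.57 and 5.46 after 8 h of RA, against 8.25, 7.97, 6.92 and 7.95 at day 2. Both RA arrays lay below every other array of the series, and the lowest day 2 array, replicate 3, was 6.92. The log2 fold change was -2.26 (SE 0.38), with an unadjusted p of 5.7e-05 and a limma adjusted p of 0.020, so that Id3 was not called. Without day 2 replicate 3 it was called (-2.54, limma adjusted p = 0.0031), and with any other 1 array left out the limma adjusted p lay between 0.058 and 0.12. At day 3 the arrays read 9.58, 9.20 and 10.09. Against 8 h of RA this was the largest log2 fold change of the members in that comparison, at 4.11 (SE 0.40, 17.2-fold, limma adjusted p = 5.1e-05), and it held with any array left out. Against day 2 it was 1.85 (SE 0.34, limma adjusted p = 0.0034), with no overlap, and was lost without day 3 replicate 1 (limma adjusted p = 0.015) or replicate 3 (0.022). The 8 h arrays are shared by the comparisons with day 2 and day 3, so that a low pair of arrays enters both.

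After day 3 no change of Id3 was called from stage to stage. The day 4 arrays, at 8.84, 8.78 and 9.10, lay below those of day 3 (-0.71, SE 0.36, limma adjusted p = 0.81), and day 7 gave 9.22, 9.36 and 8.22, overlapping with them. Day 7 was above day 0, at 7.39, 7.18 and 7.75, by 1.50 (SE 0.36, limma adjusted p = 0.0056). That call was lost without day 0 replicate 1 or 2 or day 7 replicate 3 or 4, at limma adjusted p between 0.020 and 0.029. The stage order of Id3, lowest mean first, was 8 h of RA, day 0, day 2, day 4, day 7 and day 3, and the neighbours that did not overlap were 8 h of RA with day 0 and day 2 with day 4.

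Msx1 and Msx2, homeobox genes of the dorsal neural tube, neural crest and limb, were not detectable either. Their 4 probe sets lay between 2.24 and 2.58 on all arrays, under background, and were not called in any comparison.

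**Figure D3:**
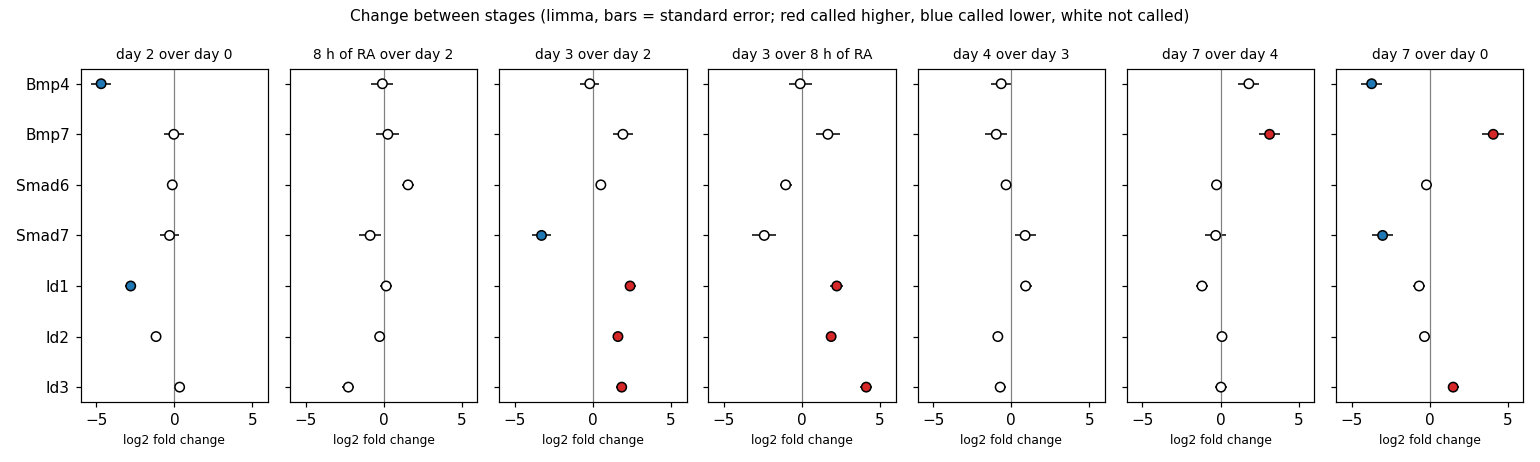
Fitted log2 fold change (horizontal axis) of 7 members in each of the 7 comparisons. Bars are limma standard errors, red points are called higher, blue called lower and white not called. Nog, Msx1 and Msx2 are left out, and Smad6 is shown though it was above background on 1 array only. Id1, Id2 and Id3 are red in both day 3 comparisons, at 1.61 to 4.11, while Smad7 is blue at day 3 against day 2, at -3.29.

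The counts of called members can be set against those of all 18193 genes. At day 2 against day 0, 0 members were called higher and 2 lower (Bmp4 and Id1), where 1.67% of genes were called higher and 2.15% lower. After 8 h of RA against day 2, 0 were called in limma's test, where 0.308% of genes were called higher and 0.0605% lower. At an unadjusted p under 0.05 there were 1 higher (Smad6) and 1 lower (Id3), where 4.41% and 1.36% of genes were. At day 3 against day 2, 3 were called higher and 1 lower, where 3.4% and 3.22% of genes were. Against 8 h of RA, day 3 had 3 members higher and 0 lower, where 1.46% and 2.37% of genes were. At day 4 against day 3, 0 were called in limma's test, where 0.506% of genes were called higher and 0.715% lower. At an unadjusted p under 0.05 there were 1 higher (Id1) and 1 lower (Id2), where 4.28% and 5.83% of genes were. At day 7 against day 4, 1 was called higher (Bmp7) and 0 lower, where 8.81% and 6.58% of genes were. At day 7 against day 0, 2 were higher (Bmp7 and Id3) and 2 lower (Bmp4 and Smad7), where 14.3% and 13.9% of genes were. The median log2 fold change of the members lay between -0.22 and 0.27 in these comparisons, and that of all genes was 0.

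The replicate numbers of day 2 and day 3 arrays pair the samples. With the number as a block in the fit of all arrays, Id1, Id2, Id3 and Smad7 were again called at day 3 against day 2 (limma adjusted p = 0.0037 for Id1, 0.0065 for Id2, 0.0075 for Id3 and 0.0043 for Smad7). That fit gives a number the same effect at every stage, also where the numbers did not pair arrays, as between day 2 and day 0. With the block in a fit of these 2 groups alone, 0 were called (0.030 for Id1, 0.050 for Id2, 0.31 for Id3 and 0.18 for Smad7), with the same directions and log2 fold changes of 2.44, 1.51, 1.91 and -3.28.

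Among the members with signal, the stage means of the Id genes moved alike as a description over 6 stages: Pearson's r was 0.81 for Id1 and Id2, 0.75 for Id2 and Id3, and 0.64 for Id1 and Id3. The stage means of Smad7 ran opposite to those of Id3 (r = -0.70) and of Bmp7 (r = -0.76). Over the 18 arrays r was 0.77 for Id1 and Id2, 0.58 for Id2 and Id3, and 0.53 for Id1 and Id3. For Smad7 it was -0.61 with Id3 and -0.47 with Bmp7. All these values share arrays and normalization. Of 4918 other genes whose stage means span at least 2 on the log2 scale, Serping1 was most like Id1 (r = 0.984), followed by Cfap69, Zfp516, Lats2 and Acsf2. A330076H08Rik was most like Id3 (r = 0.955), then 1700019M22Rik, Kcnma1, Palm2 and Zfp458. Plcb1 was most like Bmp7 (r = 0.998), then Filip1, Cldn11, Abat and Lrrtm3. Cnpy1 was most like Smad7 (r = 0.988), then Lrch4, Gldc, Nlrp14 and Blnk. Each list is the top of 4918 correlations over 6 stage means, so high values can come from the ranking alone. For Bmp7 the means of day 0, day 2 and 8 h of RA were also under background. For Msx1, under background throughout, the list is not given.

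The other genes of the pathway give the setting of these members. Their counts are to be read beside the shares of all genes called in the same comparisons, which were largest in those with day 7. Of 13 further BMP and GDF ligands 10 were measured, and 9 were not called in any comparison. The exception was Gdf3, a ligand of ES cells and early embryo, which read 3.30, 2.38 and 4.13 at day 3, against 9.85, 9.26, 10.28 and 10.65 at day 2. No day 3 array came near the day 2 arrays (log2 fold change -6.74, SE 0.39, limma adjusted p = 2.2e-07), and against 8 h of RA, where both arrays read 9.73, the change was -6.46. So the fall of Gdf3 lay between 8 h of RA and day 3. It was 1 of 10 called there, with 0 higher, where 2.37% of all genes were called lower and 1.46% higher.

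Of the receptors and signal-carrying SMADs, those called were called at day 7. Mean log2 signals of Bmpr1a, a type I receptor, lay between 9.74 and 11.23, of Bmpr2, a type II receptor, between 9.66 and 11.16, of Smad1 between 11.44 and 11.98, and of Smad4 between 11.17 and 12.06. Of 7 receptors, 1 was called lower at day 7 than at day 4, Bmpr1a (-1.10, SE 0.21, limma adjusted p = 0.0020), and 0 higher. In that comparison 6.58% of all genes were called lower and 8.81% higher. Against day 0, day 7 had Bmpr1b, another type I receptor, at least 4.24-fold higher and Bmpr2 higher by 1.28. Of all genes, 14.3% were called higher and 13.9% lower there. Of 9 SMADs and partners, 2 were lower at day 7 than at day 4, Smad5 (-1.53) and the co-repressor Ski (-1.80), and 1 higher, the ubiquitin ligase Smurf1 (1.85). Against day 0, 1 of the 9 was higher and 1 lower at day 7. None of these 16 genes was called in the comparisons among day 0, day 2, 8 h of RA, day 3 and day 4 that were tested. In those comparisons at most 3.4% of all genes were called in 1 direction.

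Among 20 secreted and membrane inhibitors and modulators 18 were measured. Fst, which encodes follistatin, a binder of activin and some BMPs, read 10.87, 11.58, 11.10 and 10.67 at day 2, against 7.00, 8.93 and 9.06 at day 0. It was higher at day 2 by 2.73 (SE 0.50, limma adjusted p = 0.0061) and then lower at day 3 than at day 2 by a log2 fold change of -4.18 (SE 0.50, limma adjusted p = 0.00015). The day 3 arrays, at 7.15, 6.98 and 6.48, were below all day 2 arrays. Chrdl1, a BMP antagonist related to chordin, was the other gene of the 2 called higher at day 2 (at least 2.2-fold) and was lower at day 4 than at day 3 (at least 2.22-fold). Of all genes, 1.67% were called higher at day 2 against day 0 and 0.715% lower at day 4 against day 3. At day 3 against day 2, the pseudoreceptor Bambi was lower (-2.38) with Fst, and Fstl1 was higher (1.26), so 1 of 18 was higher and 2 lower. Of all genes, 3.4% were called higher and 3.22% lower there. At day 7 against day 4, 4 were higher and 0 lower, where 8.81% of all genes were called higher and 6.58% lower. The 4 were Bmp1, a protease that cleaves chordin (2.57), Bmper (at least 2.38-fold), Nbl1 (at least 1.14-fold) and Dand5 (1.87). At day 7 against day 0, 4 of the 18 were higher and 2 lower, where 14.3% of all genes were called higher and 13.9% lower.

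Of 13 further target genes, Tbx3, a T-box factor of ES cells, was the 1 called at day 2 against day 0 (lower, -6.05). Of all genes, 2.15% were called lower there. At day 7 against day 4, 4 were higher and 0 lower, where 8.81% of all genes were called higher and 6.58% lower. Id4, the remaining Id gene, read 12.22, 12.26 and 12.46 at day 7, against 7.21, 8.16 and 8.38 at day 4. The groups were far apart (log2 fold change 4.40, SE 0.52, limma adjusted p = 4.0e-05), while Id1, Id2 and Id3 were not called between these stages. The other 3 were Gata3 (at least 5.55-fold higher), Gata2 (2.64) and Hey1 (2.00), and Gata2 and Gata3 are also known from spinal V2b interneurons. Hey1, a Notch target too, was the 1 called higher at day 4 against day 3 (1.60), where 0.506% of all genes were. At day 7 against day 0, 3 of the 13 were higher and 2 lower, where 14.3% of all genes were called higher and 13.9% lower. The E proteins Tcf3, Tcf4 and Tcf12, the partners that Id proteins bind, gave 1 call at day 3 against 8 h of RA, Tcf12 (higher by 1.03), and 2 at day 7 against day 0, Tcf12 (1.89) and Tcf4 (1.52). Of all genes, 1.46% were called higher at day 3 against 8 h of RA and 14.3% at day 7 against day 0.

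**Figure D4:**
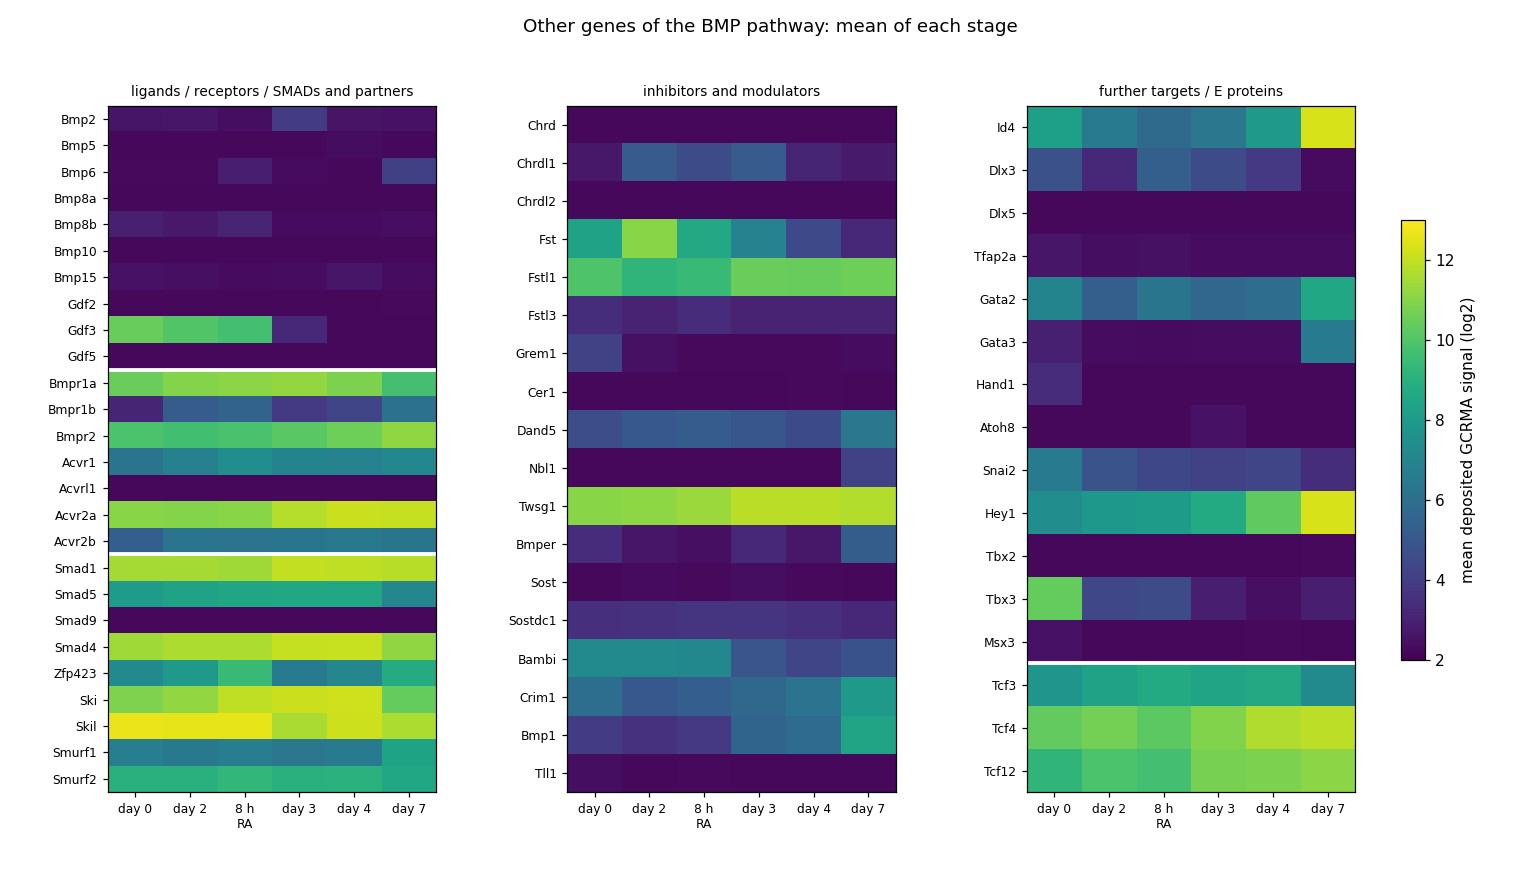
Mean log2 signal at each stage (columns, in time order) of the further pathway genes (rows), with white lines between lists; the colour scale runs from dark at 2 to yellow at 13. Gdf3 is bright until 8 h of RA and dark after it, Fst is brightest at day 2, and Id4 and Hey1 are brightest at day 7.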

How the data were processed

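Total RNA was amplified and hybridized by the authors. The deposited log2 values, 1 per probe set, were made by the authors with GCRMA, which corrects background from probe sequence, normalizes arrays by quantiles and summarizes probes. The submitters' processing notes also name limma; versions are not given in the sources used here. Many dim probe sets hold identical values on several arrays, so standard errors near background can be too small. Of 45101 probe sets, 64 controls were left out. Symbols came from the platform annotation: of 45037 probe sets, 34945 had 1 symbol, 932 several and 9160 none.

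Group means of the 6 stages were fitted to all 18 arrays with limma 3.58.1 (R 4.3.3; 12 residual and 0.515 prior degrees of freedom) and p-values were adjusted by Benjamini-Hochberg over all probe sets. A fold against a stage wholly under background is a bound with that stage's mean set to 4. Figures were drawn with Python 3.11.15 and matplotlib 3.10.9. The fit was tested on simulated data. The methods describe biological triplicates, and the number of arrays limits the precision. Named genes are all members, up to 4 called genes with the largest change per list and comparison, and the 5 genes most like 4 members. Members and lists were chosen with earlier results of these data known. The promoter sequences are from RefSeq. Some listed genes were not analysed here.

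Replicate numbers pair arrays where the deviations from group means of same-numbered arrays correlate above 0.1 in each of 3 pairs. These were 0.52, 0.41 and 0.50 between day 3 and day 2 and 0.69, 0.51 and 0.78 between day 4 and day 3. Between day 2 and day 0 they were 0.28, -0.19 and -0.10, and the RA arrays shared 2 numbers with other stages.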

Additional observations from a re-analysis of the deposited data

Results flagged for a closer look

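Smad6 on day 2 replicate 3 stood apart from its group, at a log2 signal of 2.45 with the other 3 day 2 arrays at 2.30. All 4 values are under background. The rule was applied to the same 4 day 2 arrays for each of 10 members. By chance it flags about 1 in 20 such groups. That rate does not apply here, because the other 3 arrays hold an identical value and any differing array is then flagged.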

How the results depend on the processing

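No member reversed its call in any alternative. Of 625 member values under settings other than leaving out arrays, 597 kept their side of the threshold, 27 lost a call and 1 gained one. Of 430 with 1 array left out, 397 kept it, 30 lost a call and 3 gained one. Most of these values were not called in the main fit, and only a called value can lose a call. Nog, Msx1 and Msx2 were under background on every array. The shares kept are therefore no measure of how firm the calls are. With the arrays of the 2 compared groups alone, 1 member was called at day 2 against day 0, 2 at day 3 against day 2, and 0 at day 3 against 8 h of RA, at day 7 against day 4 and at day 7 against day 0. With the replicate number as a block in such fits, 0 were called at day 2 against day 0 and 0 at day 3 against day 2. With the block in the fit of all arrays, 0 were called at day 7 against day 4 (Bmp7 at a limma adjusted p of 0.044). Id1 was lost at day 3 against 8 h of RA (0.019) and Id3 at day 7 against day 0 (0.016), and at day 3 against day 2 all 4 were kept. Replicate number 5 is held by 1 array alone, at day 7. With the block that array therefore no longer weighs on the day 7 mean. No call at day 4 against day 3 changed with the block. Leaving out dim probe sets gave 1 call after 8 h of RA against day 2 (Id3, limma adjusted p = 0.0070), and an adjusted p under 0.05 also gave 1 there, 2 at day 7 against day 4 and 3 at day 2 against day 0 (Id2 added). Averaging the probe sets of a gene gave 0 at day 7 against day 4, and lost Id2 at day 3 against day 2 (limma adjusted p = 0.014) and against 8 h of RA (0.058). Leaving out probe sets whose identifiers end in _s_at, _x_at or _a_at, which removes those that represent Id1 and Id2, gave 1 at day 2 against day 0, 2 at day 3 against day 2 and 1 at day 3 against 8 h of RA. Without 1 array at a time, counts ran from 2 to 3 (day 2 against day 0), 0 to 1 (8 h of RA against day 2), 1 to 3 (day 3 against day 2), 1 to 2 (day 3 against 8 h of RA), 0 to 0 (day 4 against day 3), 0 to 1 (day 7 against day 4) and 2 to 4 (day 7 against day 0), and where 1 RA array was left, its spread was taken from the remaining groups. Chosen after seeing the data, day 2 replicates 3 and 4 alone gave 2 calls at day 3 against day 2, and replicates 1 and 2 alone gave 1 there and 1 after 8 h of RA. Median centring moved the median of all genes by 0.094 at most. The causes of these changes were not tested, other than fewer probe sets or arrays by construction.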
